A study of Mus musculus with 32 samples.

Results

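Cells store iron in ferritin, a hollow shell built from a heavy chain (Fth1), which oxidises iron, and a light chain (Ftl1), which helps to form the mineral core. Translation of both mRNAs is known to be held back when iron is scarce, because the iron regulatory proteins Aco1 (IRP1) and Ireb2 (IRP2) bind a hairpin in the 5' UTR, the iron-responsive element (IRE). IREs in the 3' UTR of the transferrin receptor mRNA (Tfrc) act the other way and protect that mRNA from decay. Fbxl5, part of a ubiquitin ligase, removes Ireb2 when iron is plentiful, and Ncoa4 carries ferritin to the lysosome, where its iron is released.

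The ferritin and IRE genes were taken as 9 gene symbols of the count table, out of 17757 genes: Fth1, Ftl1, Slc40a1 (ferroportin, the iron exporter), Tfrc, Slc11a2 (DMT1, the importer of ferrous iron), Aco1, Ireb2, Fbxl5 and Ncoa4. All 9 were found, and all had counts in every library. Fth1 and Ftl1 were selected on their measured values in these libraries, so their values are given as a description, with no test. The other 7 members were tested in fits over all genes.

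The cells were 4T1, a line from a mouse mammary tumour, cultured as spheroids in lung-like medium over 5 days. Control spheroids with a scramble shRNA received 700 μM aspartate (ASP shSCR) or no added aspartate (NoASP shSCR), and spheroids with an shRNA against Grin2d, an NMDA receptor subunit (ASP shGRIN2D), or Dhps, the enzyme that starts eIF5A hypusination (ASP shDHPS), received 700 μM aspartate. From each of 4 pellets per condition, a polysomal fraction (mRNA with many ribosomes) and a matched sub-polysomal fraction (few or none) were sequenced, giving 32 libraries from 16 pellets. Library totals ran from 12870563 to 25639437 counts, with a median of 18168800. A spheroid pellet is a culture of 1 cell line, and none of these libraries measured iron or ferritin protein. By the study's methods, the transduced lines were polyclonal and the pellets independent. The polysomal library of ASP shSCR replicate 1 stood apart from the other 31 libraries, and results that rest on it are given with and without it.

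The knockdown was visible in the libraries labelled ASP shDHPS. Sub-polysomal Dhps was 40.2, 32.2, 41.0 and 39.6 CPM (counts scaled to library size) in ASP shSCR and 9.54, 10.4, 9.63 and 8.44 CPM in ASP shDHPS (edgeR adjusted p = 1.11e-08). Grin2d was scarce, at 4.01, 3.63, 6.54 and 3.18 CPM in sub-polysomal ASP shSCR and 2.45, 1.76, 2.51 and 2.73 CPM in ASP shGRIN2D. These groups did not overlap, but the difference of 0.88 (log2, SE 0.29) did not pass the threshold (edgeR adjusted p = 0.232). The epithelial markers Krt8, Krt18, Krt19, Epcam and Cdh1 were all present and summed to 1665 to 6487 CPM per library. Mesenchymal or fibroblast markers, of which Vim was the most abundant, summed to 462 to 1883 CPM, and leukocyte or macrophage markers to 5.20 to 26.7 CPM. The only endothelial marker in the table, Pecam1, and the only erythroid one, Hba-a1, stayed at or below 0.658 and 0.672 CPM.

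IRE letters were searched in 1 annotated transcript per gene (GENCODE, GRCm38, whereas the authors counted on GRCm39): the loop CAGTGN, at least 4 of 5 pairs between the 5 bases on either side (G-U allowed) and an unpaired C before them, on the sense strand. A transcript was found for 13376 of the 17757 genes, or 75.3%. Of these, 87 (0.65%) held a match in the 5' UTR and 581 (4.34%) in the 3' UTR, so a match is a description and not evidence of a working element. The 3 members with a 5' UTR match are the ferritin chains and Slc40a1, shown because the ratios below are read against them, with the loop in capitals and 5 of 5 stem pairs in each:
Fth1: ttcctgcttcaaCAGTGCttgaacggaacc
Ftl1: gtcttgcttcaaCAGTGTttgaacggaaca
Slc40a1: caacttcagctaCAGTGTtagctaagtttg

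The Fth1 match lies in exon 1 at chr19:9982732-9982761 (plus strand), the Ftl1 match in exon 1 at chr7:45459778-45459807 (minus strand) and the Slc40a1 match in exon 1 at chr1:45925464-45925493 (minus strand). Tfrc held 4 matches, all in the 3' UTR in its last exon, exon 19, on the plus strand of chromosome 16, each with 5 of 5 pairs. The first, at chr16:32631219-32631248, and the last, at chr16:32631710-32631739, are shown because Tfrc is the one member with matches on this side of the coding region:
Tfrc first: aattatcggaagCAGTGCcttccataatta
Tfrc last: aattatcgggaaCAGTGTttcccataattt

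No match was found in the transcripts searched for Slc11a2, Aco1, Ireb2, Fbxl5 and Ncoa4, which says only that these letters are not there. The ferritin mRNAs are also short. Their coding regions, stop codon included, span 549 bases in Fth1 and 552 in Ftl1, against 1713 in Slc40a1, 2292 in Tfrc and a median of 1350 over the 13376 genes.

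Relative to the average mRNA, ferritin mRNA was depleted from the polysomal fraction in 15 of the 16 pellets. Each library is scaled to its own size, so a ratio compares shares of the 2 fractions and not amounts of mRNA, which were not measured. The log2 ratio of polysomal to sub-polysomal level for Fth1 was −3.33, −3.26, −2.11 and −2.33 in the 4 pellets of NoASP shSCR, −2.03, −2.59, −3.63 and −2.35 in ASP shGRIN2D and −2.31, −2.19, −2.02 and −1.90 in ASP shDHPS. In ASP shSCR it was −3.68, −2.68 and −2.11 in replicates 2 to 4. Replicate 1 of ASP shSCR had 3.25. In that pellet Fth1 was 9.53-fold higher in the polysomal than in the sub-polysomal library, whereas in the other 15 pellets it was between 3.74- and 12.8-fold lower.

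Ftl1, encoded on another chromosome, had nearly the same values. Its log2 ratio was 2.88, −3.56, −2.82 and −2.03 in ASP shSCR replicates 1 to 4, −3.37, −3.46, −2.49 and −2.32 in NoASP shSCR, −1.91, −2.89, −3.77 and −2.23 in ASP shGRIN2D and −1.88, −2.34, −1.86 and −2.21 in ASP shDHPS. ASP shSCR replicate 1 was again the only pellet above 0, and the other 3 pellets of that condition lay within the range of the other conditions.

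**Figure D1:**
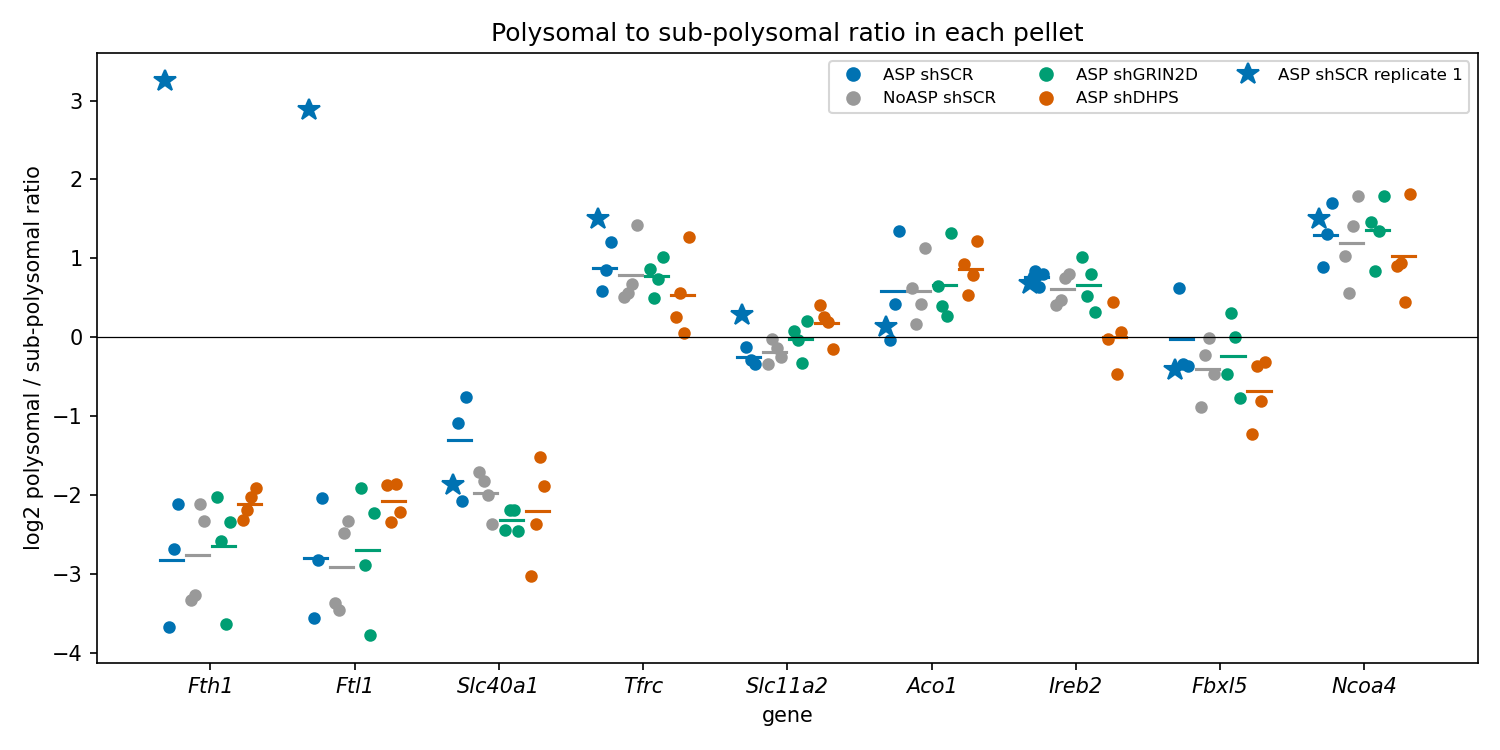
Log2 ratio of polysomal to sub-polysomal level (y axis) of the 9 genes (x axis) in each of the 16 pellets, 1 point per pellet, coloured by condition; short lines are condition means, which for ASP shSCR leave out replicate 1, drawn as a star. Fth1 and Ftl1 of replicate 1 stand at 3.25 and 2.88, while the other 15 pellets lie between −3.77 and −1.86.

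Replicate 1 set the ASP shSCR mean. With it the Fth1 ratio was −1.30 ± 3.11 (log2, SD, n = 4), and without it −2.82 ± 0.79 (n = 3), against −2.76 ± 0.63 in NoASP shSCR, −2.65 ± 0.70 in ASP shGRIN2D and −2.11 ± 0.18 in ASP shDHPS (n = 4 each). For Ftl1 the mean was −1.38 ± 2.91 with replicate 1 and −2.80 ± 0.76 without it, against −2.91 ± 0.59, −2.70 ± 0.82 and −2.07 ± 0.24. Among the 10909 genes with a mean of at least 50 counts per library, the share with a lower ratio than Fth1 was 0.651% in NoASP shSCR, 1.19% in ASP shGRIN2D and 3.12% in ASP shDHPS. In ASP shSCR it was 0.614% without replicate 1, and 99.9% in replicate 1 alone.

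Ferritin lay lower than most short mRNAs. The 1388 genes with a coding region of at most 600 bases had a median log2 ratio of −0.48 over the 15 other pellets, against 0.21 for all 10375 searched genes of that abundance. Fth1 averaged −2.57 and Ftl1 −2.61 over the same pellets, and 1.59% and 1.51% of the short genes lay below them.

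The levels show which library was unusual. Polysomal Fth1 was 63264 CPM in ASP shSCR replicate 1 and 1241, 959 and 1231 CPM in replicates 2 to 4. It ran from 607 to 1267 CPM in NoASP shSCR, from 1013 to 1480 CPM in ASP shGRIN2D and from 1147 to 1672 CPM in ASP shDHPS. These CPM values were scaled by TMM among the 16 libraries of a fraction. The 906274 Fth1 and 637722 Ftl1 counts of replicate 1 made them the most and second most abundant genes of that library, and together they took 7.50% of its counts. In the other 15 polysomal libraries ferritin took 0.120% to 0.267%, and in the 16 sub-polysomal libraries 0.693% to 2.27%.

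Sub-polysomal ferritin of the same pellet was ordinary. Sub-polysomal Fth1 was 5023, 14627, 5583 and 4917 CPM in ASP shSCR, 5556, 8009, 5090 and 5062 CPM in NoASP shSCR, 3692, 8268, 11604 and 6024 CPM in ASP shGRIN2D and 5165, 5361, 5354 and 5621 CPM in ASP shDHPS. Replicate 2 of ASP shSCR, not replicate 1, held the highest value, and the 4 conditions overlapped. Sub-polysomal Ftl1 followed, at 4564, 11229, 5250 and 4019 CPM in ASP shSCR and from 2903 to 9146 CPM in the other conditions. ASP shDHPS had the narrowest spread, from 5165 to 5621 CPM for Fth1 and from 3718 to 4171 CPM for Ftl1.

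**Figure D2:**
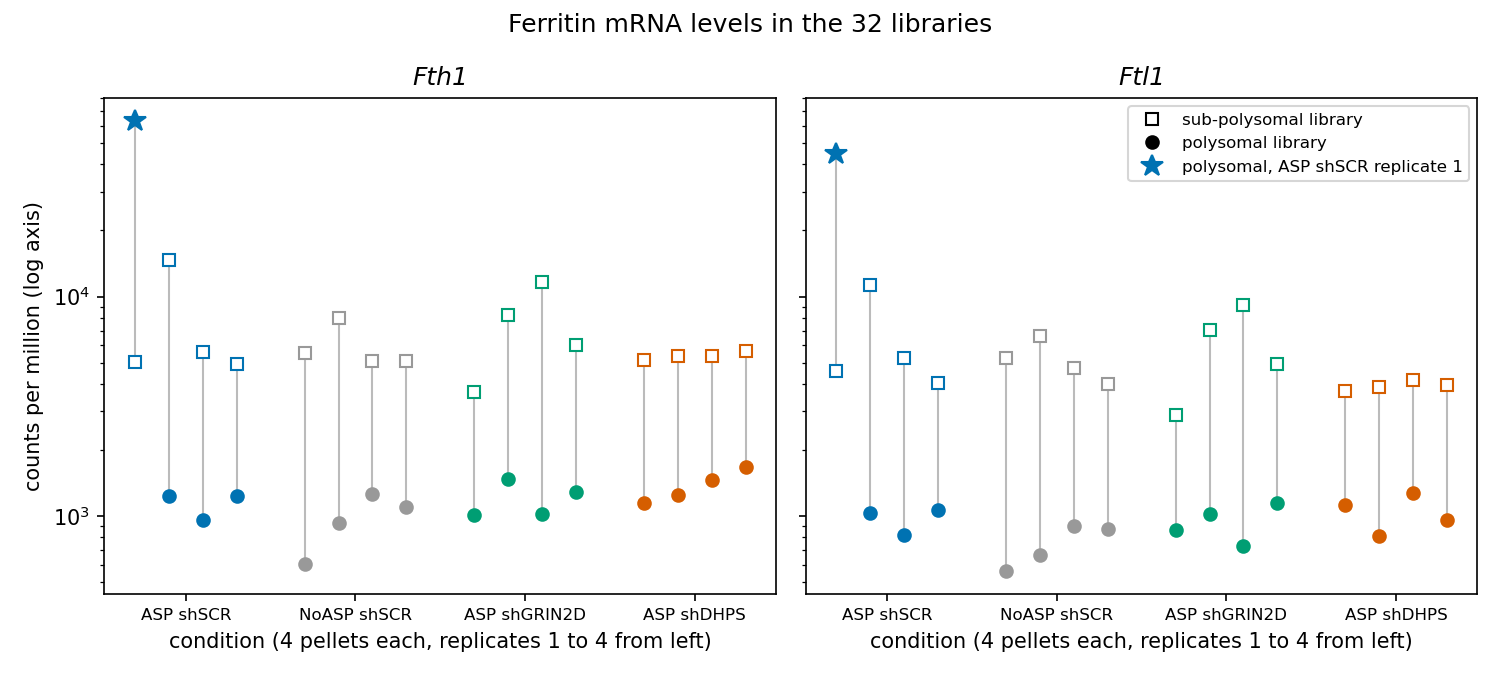
Fth1 and Ftl1 in CPM (log y axis) in the polysomal library (filled) and the sub-polysomal library (open square) of each pellet, grouped by condition on the x axis and joined by a grey line. In ASP shSCR replicate 1 (star) the polysomal value lies above the sub-polysomal one; in the other 15 pellets it lies below.

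The polysomal library of ASP shSCR replicate 1 stood apart beyond ferritin. On a scale on which 0 is the mean sub-polysomal and 1 the mean polysomal profile of the other 3 conditions, computed over 11046 genes counted 10 or more times in all 32 libraries, it lay at 0.372. Values ran from 0.777 to 1.19 in the other 15 polysomal libraries and from −0.11 to 0.122 in the 16 sub-polysomal ones. Mitochondrially encoded mRNAs took 4.31% of its counts, against 0.320% to 1.16% in the other polysomal and 4.68% to 9.31% in the sub-polysomal libraries. With all 32 libraries scaled together, 851 of 17757 genes (4.79%) were higher in it than in each of the other 31, and Fth1 and Ftl1 were the only 2 of the 9 members among them.

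On that common scale, Fth1 was at 51101 CPM in the library, 3.39-fold above the highest of the other 31 and 45.1-fold above the mean of the other polysomal libraries (1133 ± 254 CPM, SD, n = 15). Ftl1 was at 35958 CPM, 3.11-fold above the next library and 40.5-fold above the polysomal mean (887 ± 186 CPM, SD, n = 15). Ferritin was thus higher there than in any sub-polysomal library, its own included. By log2 difference from the polysomal mean, Fth1 ranked 5th and Ftl1 7th of 10909 genes. The other 7 members ranked between 2161 and 8129, and Slc40a1, the other member with a 5' UTR match, was at 3.16 CPM against 3.20 ± 0.91 CPM.

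Some other iron genes were also high in the library. Among the listed genes above all other 31 libraries were Pcbp2, an iron chaperone for ferritin, at 799.8 CPM, Slc48a1, a heme transporter, at 1012 CPM, and Isca1, Bola3 and Slc25a28 of the 26 iron-sulfur cluster genes. Leukocyte markers summed to 9.08 CPM there, inside the range of 5.20 to 26.7 CPM over all libraries, and Hba-a1 was at 0.451 CPM. What part the profile of this library had in its ferritin values was not tested.

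**Figure D3:**
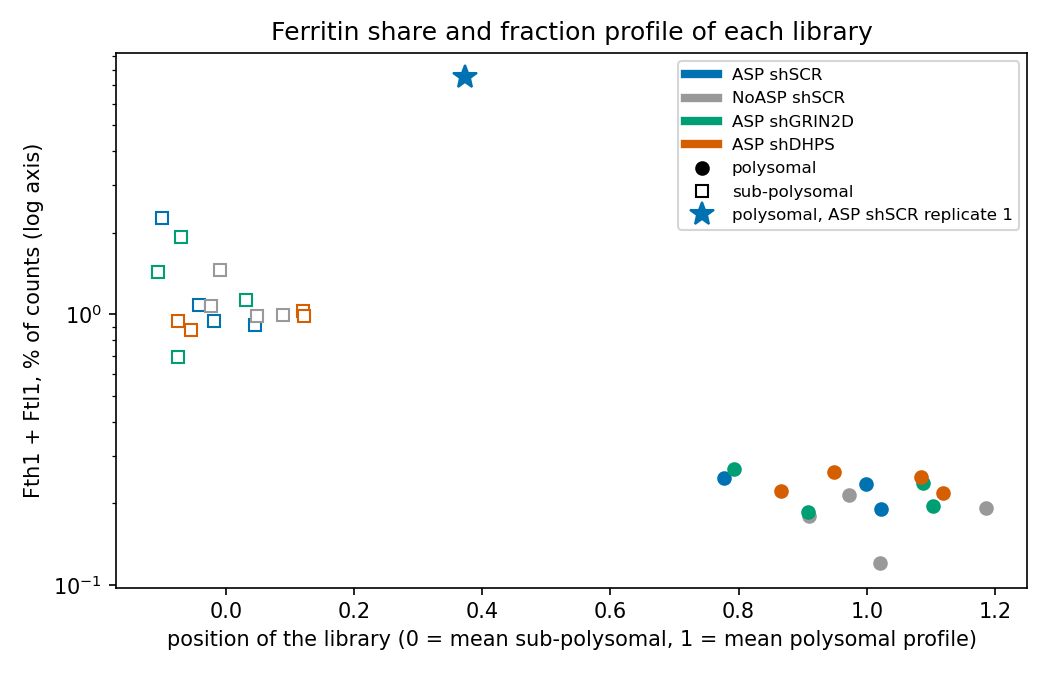
Share of counts from Fth1 and Ftl1 (log y axis, percent) against the position of each of the 32 libraries between the mean sub-polysomal (0) and mean polysomal (1) profile of the other 3 conditions (x axis). The polysomal library of ASP shSCR replicate 1 (star) is at 0.372 and 7.50%, apart from both clusters.

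The table holds 2 further ferritin copies, Ftl1-ps1 and Fth1-ps, named as pseudogenes, that can share reads with the parent genes, so the split between them is uncertain. Ftl1-ps1 had 6754 counts in the polysomal library of ASP shSCR replicate 1 and 257, 159 and 1117 in replicates 2 to 4, and its log2 ratio there was 2.76, −3.50, −2.67 and 0.37. Replicate 4 thus had a raised polysomal Ftl1-ps1 without a raised Ftl1. Fth1-ps was above all other 31 libraries in replicate 1 as well, at 6.15 CPM.

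Slc40a1 had a ratio below 0 in every pellet, as ferritin did in 15. Its log2 ratio was −1.87, −1.09, −2.07 and −0.75 in ASP shSCR, −1.70, −1.82, −1.99 and −2.37 in NoASP shSCR, −2.45, −2.19, −2.19 and −2.45 in ASP shGRIN2D and −3.02, −2.37, −1.51 and −1.88 in ASP shDHPS. It was called lower in the polysomal fraction in each condition, with edgeR adjusted p values from 3.06e-08 in ASP shGRIN2D to 3.19e-05 in ASP shSCR. Across all genes, 18.9% were called lower in ASP shSCR, 20.6% in NoASP shSCR, 20.4% in ASP shGRIN2D and 21.3% in ASP shDHPS, so a call alone is common. Unlike ferritin, Slc40a1 of ASP shSCR replicate 1 lay inside the range of its condition.

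Ncoa4 and Tfrc both had a higher share in the polysomal fraction. Called higher in the polysomal fraction were 20.8% of genes in ASP shSCR, 23.7% in NoASP shSCR, 23% in ASP shGRIN2D and 21.8% in ASP shDHPS, and of the 7 tested members 3, 4, 4 and 3. The Ncoa4 log2 ratio was 1.49, 0.88, 1.31 and 1.70 in ASP shSCR, and its means elsewhere ran from 1.03 ± 0.57 in ASP shDHPS to 1.36 ± 0.40 in ASP shGRIN2D (SD, n = 4). The Tfrc log2 ratio was 1.50, 0.59, 0.85 and 1.21 in ASP shSCR, 0.51, 0.56, 0.67 and 1.43 in NoASP shSCR, 0.86, 0.50, 0.73 and 1.01 in ASP shGRIN2D and 0.25, 0.56, 0.05 and 1.27 in ASP shDHPS. Both were positive in all 16 pellets and both were called in all 4 conditions, Tfrc in ASP shDHPS with the weakest support (edgeR adjusted p = 0.0382, lost without ASP shDHPS replicate 2 or 4 or ASP shGRIN2D replicate 2, up to 0.331, and with DESeq2 size factors, 0.0572). Without replicate 1, the ASP shSCR calls of Tfrc (adjusted p = 0.00259), Ncoa4 (8.85e-05) and Slc40a1 (0.000147) were kept in the same fit.

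The 2 iron regulatory proteins differed in where they were called. Ireb2 was higher in polysomes in ASP shSCR (edgeR adjusted p = 0.000877), NoASP shSCR and ASP shGRIN2D, with mean log2 ratios of 0.74 ± 0.10, 0.61 ± 0.20 and 0.67 ± 0.30 (SD, n = 4). In ASP shDHPS its ratio was −0.02, 0.44, −0.47 and 0.07, a mean of 0.01 ± 0.37. Aco1 was called in NoASP shSCR, ASP shGRIN2D and ASP shDHPS, and had 0.13, −0.03, 0.42 and 1.35 in ASP shSCR (edgeR adjusted p = 0.0900). Its NoASP shSCR call was lost without replicate 1 or 4 of that condition, at log2 ratios of 0.57 and 0.41, and its ASP shGRIN2D call without replicate 4, at 0.44. Fbxl5, at −0.41, 0.63, −0.34 and −0.37 in ASP shSCR, was called lower in polysomes by edgeR in ASP shDHPS alone, where it had −1.23, −0.36, −0.81 and −0.31 (edgeR adjusted p = 0.0102). That call was lost without ASP shDHPS replicate 1, at −0.49. In NoASP shSCR, DESeq2 called Fbxl5 lower as well (adjusted p = 0.0401) and did not call Aco1 (adjusted p = 0.0571), nor did edgeR with DESeq2 size factors (adjusted p = 0.0642). Slc11a2 stayed between −0.34 and 0.41 in all 16 pellets and was called in no condition.

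The ratio was then compared between conditions that differ in added aspartate, in the Grin2d shRNA or in the Dhps shRNA. All 3 comparisons share the ASP shSCR pellets and are given as ASP shSCR minus the other condition. Against NoASP shSCR and ASP shGRIN2D, edgeR called 0% of all genes (0 of 17757 in each; 343 and 571 had an unadjusted p under 0.05, and DESeq2 called 0 in each). Against ASP shDHPS it called 37 genes, 0.208%, whereas DESeq2 called 664 and other settings 0 to 269. None of the 7 tested members was called by edgeR in any of the 3 comparisons, and DESeq2 called 1, Ireb2 against ASP shDHPS.

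The largest ratio differences among the 7 belonged to Slc40a1 and Ireb2. Slc40a1 was higher in ASP shSCR by 0.54 (log2, SE 0.34) than in NoASP shSCR, by 0.88 (SE 0.34) than in ASP shGRIN2D and by 0.76 (SE 0.35) than in ASP shDHPS. Ireb2 was 0.73 (SE 0.24) higher than in ASP shDHPS (edgeR adjusted p = 0.160), and its 4 ASP shSCR pellets, from 0.64 to 0.84, lay above all 4 ASP shDHPS pellets, from −0.47 to 0.44. The DESeq2 adjusted p of this difference was 0.0340. Against NoASP shSCR and ASP shGRIN2D, Ireb2 differed by 0.13 and 0.07 (SE 0.24 each).

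For ferritin the difference rested on 1 pellet. With all pellets, the fitted Fth1 ratio of ASP shSCR was 0.92 (SE 0.82), 0.81 (SE 0.82) and 0.27 (SE 0.82) above NoASP shSCR, ASP shGRIN2D and ASP shDHPS. Without replicate 1 the same differences were −0.08 (SE 0.37), −0.22 (SE 0.37) and −0.75 (SE 0.37). Those of Ftl1 went from 1.07, 0.85 and 0.23 to 0.09, −0.15 and −0.77. The sign against ASP shGRIN2D and ASP shDHPS thus turned for both chains.

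**Figure D4:**
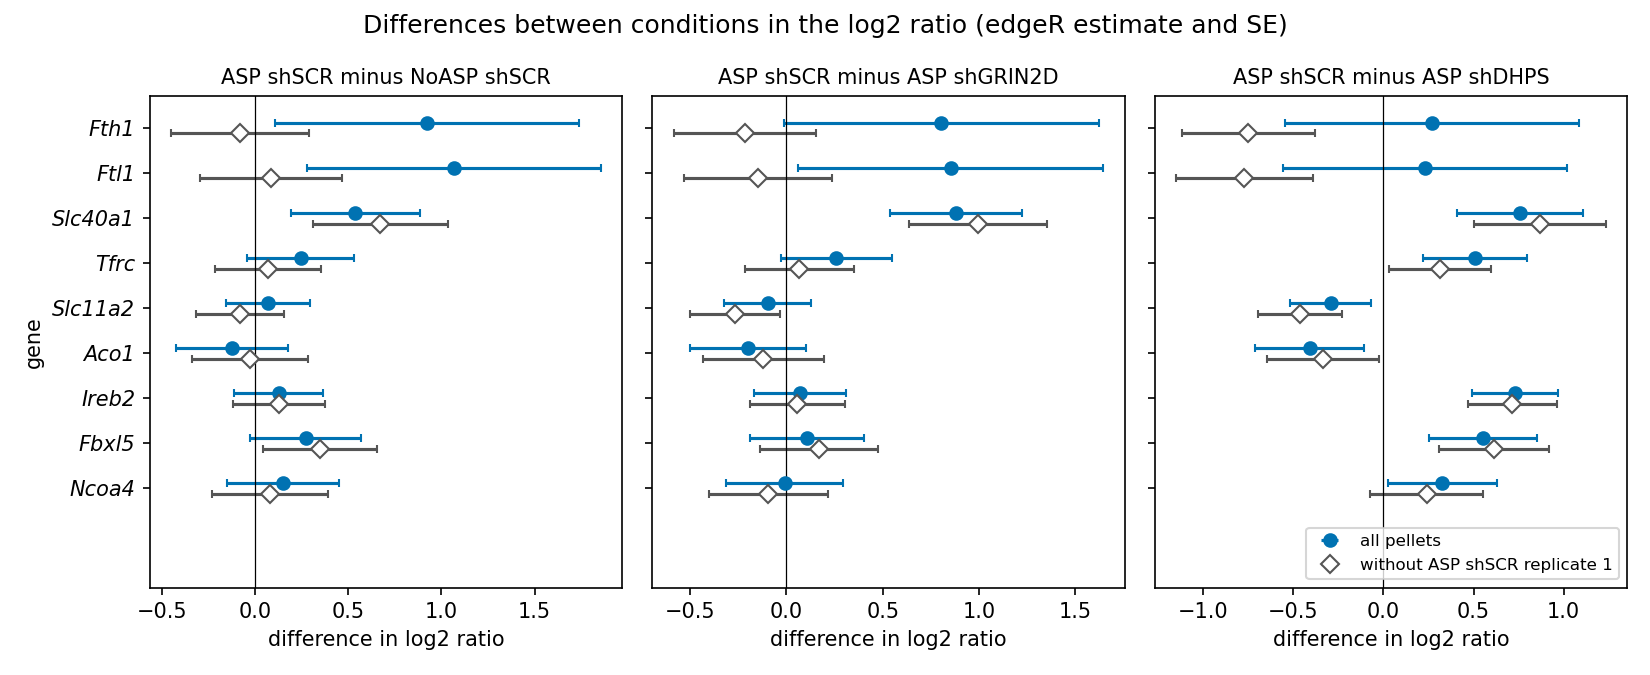
Difference in log2 ratio, ASP shSCR minus each other condition (x axis, edgeR estimate, bars 1 SE), for the 9 genes (y axis), with all pellets (filled) and without ASP shSCR replicate 1 (open). The ferritin differences fall from 0.92 and 1.07 to −0.08 and 0.09 against NoASP shSCR, while among the other 7 genes the shift is greatest for Tfrc against ASP shDHPS, from 0.51 to 0.32.

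Levels within a fraction were compared next. A level per library cannot tell more mRNA per cell from more cells that hold it. Of all genes, edgeR called in the sub-polysomal fraction 0% against NoASP shSCR (871 at an unadjusted p under 0.05, 1 in DESeq2), 0.315% against ASP shGRIN2D and 1.41% against ASP shDHPS. In the polysomal fraction the shares were 0% (1376 at an unadjusted p under 0.05, 1 in DESeq2), 0.0169% and 0.169%. Among the 7 tested members there were 2 calls, both sub-polysomal.

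Slc40a1 was higher in ASP shGRIN2D. Its sub-polysomal level was 11.1, 7.63, 9.82 and 7.44 CPM in ASP shSCR and 16.5, 17.1, 21.1 and 21.3 CPM in ASP shGRIN2D, so the groups did not overlap. NoASP shSCR, from 8.99 to 13.3 CPM, and ASP shDHPS, from 8.97 to 14.0 CPM, overlapped with ASP shSCR. The difference to ASP shGRIN2D was −1.07 (log2, SE 0.19, edgeR adjusted p = 0.00623), a 2.10-fold higher level in the knockdown. It held when any pellet was left out (adjusted p from 0.00479 to 0.0330). In the polysomal fraction, Slc40a1 had 3.74 ± 0.93 CPM in ASP shSCR and 4.08 ± 0.69 CPM in ASP shGRIN2D (SD, n = 4), and the difference of −0.13 (SE 0.30) was not called.

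Tfrc was higher in ASP shDHPS. Its sub-polysomal level was 75.7, 65.2, 110 and 85.8 CPM in ASP shSCR and 141, 125, 186 and 142 CPM in ASP shDHPS, again with no overlap. The difference was −0.82 (log2, SE 0.19, edgeR adjusted p = 0.0274), a 1.77-fold higher level in the knockdown. The call was lost without ASP shSCR replicate 1 (adjusted p = 0.0873), 2 or 4, or ASP shDHPS replicate 1, 3 or 4. Over all single pellets left out the difference ran from −0.98 to −0.70 and the adjusted p from 0.00920 to 0.123. Polysomal Tfrc was 206 ± 73.7 CPM in ASP shSCR and 244 ± 91.2 CPM in ASP shDHPS, a difference of −0.25 (SE 0.31) that was not called.

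Slc11a2 in polysomes depended on the same library. It was 49.2, 25.6, 26.5 and 23.2 CPM in ASP shSCR replicates 1 to 4 and 59.5, 50.03, 40.3 and 42.9 CPM in ASP shDHPS. With all pellets the difference was −0.63 (log2, SE 0.24, edgeR adjusted p = 0.193). Without replicate 1 it was −0.95 (SE 0.20, edgeR adjusted p = 0.0306). With any 1 pellet left out, calls over all genes in this comparison ranged from 0 to 304, against 30 with all pellets. The share called in the fit without replicate 1 is not given here. Sub-polysomal Ncoa4 was lower in ASP shSCR, at 23.6 ± 2.45 CPM, than in ASP shDHPS, at 33.0 ± 6.07 CPM, but was not called by edgeR without a replicate term (adjusted p = 0.110). DESeq2 called it (adjusted p = 0.0446).

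**Figure D5:**
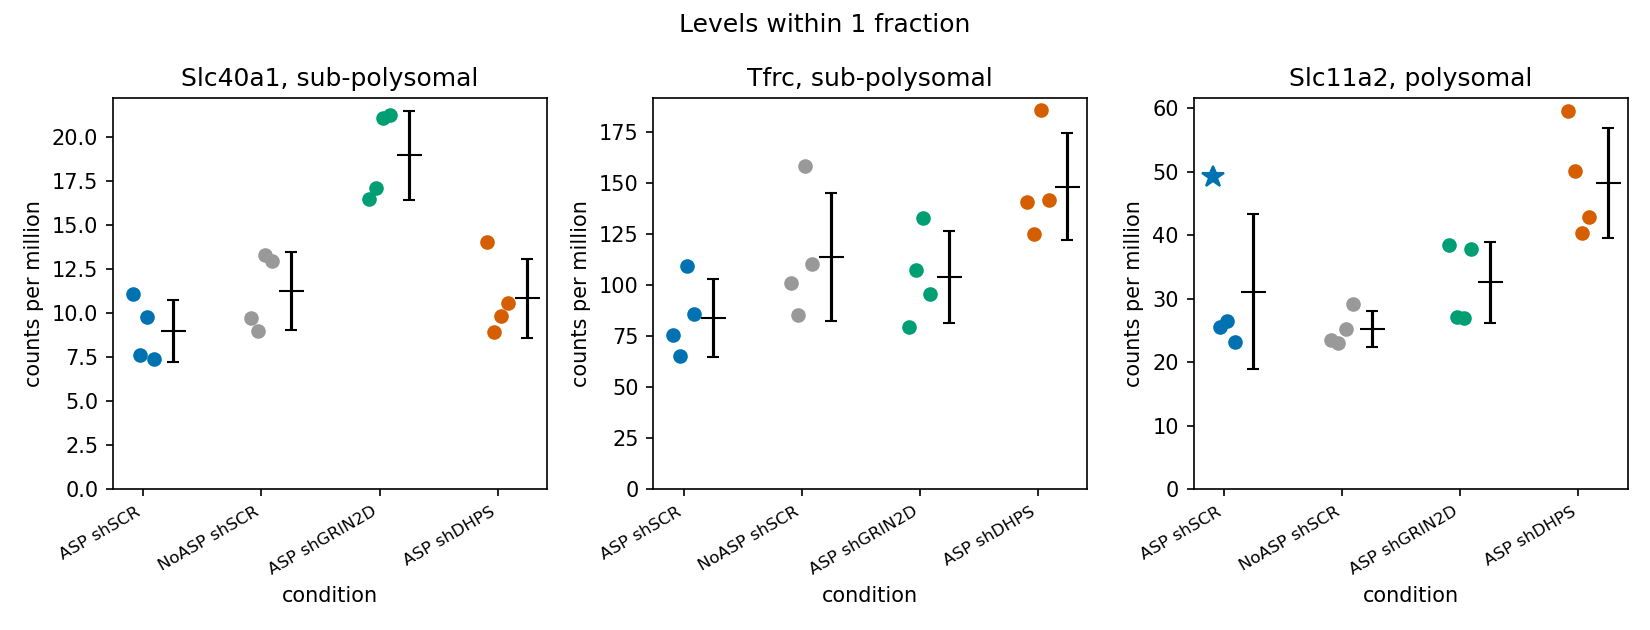
CPM (y axis) of sub-polysomal Slc40a1, sub-polysomal Tfrc and polysomal Slc11a2 in the 4 pellets of each condition (x axis), with mean and SD beside the points. Slc40a1 of ASP shGRIN2D, from 16.5 to 21.3, and Tfrc of ASP shDHPS, from 125 to 186, lie above all ASP shSCR pellets; the star marks Slc11a2 of ASP shSCR replicate 1 at 49.2.

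Per kilobase of transcript, the ferritin mRNAs were far more abundant than the others. In sub-polysomal ASP shSCR, Fth1 had 8113 ± 5097 and Ftl1 6472 ± 3458 CPM per kb (SD, n = 4), which overlapped. Then came Fbxl5 with 23.9 ± 1.73, Tfrc with 17.2 ± 3.90, Slc11a2 with 9.32 ± 0.75, Ireb2 with 8.82 ± 2.13, Ncoa4 with 5.80 ± 0.60, Aco1 with 5.57 ± 1.33 and Slc40a1 with 2.67 ± 0.52 CPM per kb. The neighbours Slc11a2 and Ireb2, and Ncoa4 and Aco1, did not differ beyond their spread.

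The wider iron genes were described from lists, chosen with earlier results of these data known. Ferritin aside, which was not tested, edgeR called no ratio difference between conditions for any of the 69 listed genes. Against ASP shDHPS, DESeq2 called 4 of the 64 to which it gave an adjusted p, a share near the 6.11% of all genes with one. They were Ireb2 (given above) and the enzymes Alad (adjusted p = 0.00478), Blvrb (0.00271) and Fdxr (0.0401), the last 3 named after their values were seen. In sub-polysomal levels against ASP shDHPS, edgeR called 3 of the 69, Tfrc and 2 others, against 1.41% of all genes. Hmox1, heme oxygenase, which releases iron from heme, was 15.3, 16.5, 17.7 and 18.2 CPM in ASP shSCR and 25.9, 25.6, 49.3 and 48.4 CPM in ASP shDHPS (log2 difference −1.14, SE 0.26, edgeR adjusted p = 0.0209). Tmprss6, a protease that lowers hepcidin expression, was 2.66, 3.75, 1.19 and 1.65 CPM in ASP shSCR and 0.188, 0.388, 0.790 and 0.713 CPM in ASP shDHPS (log2 difference 2.15, SE 0.55, edgeR adjusted p = 0.0394). Neither group pair overlapped, but Tmprss6 rested on 4 to 67 counts per library, and without ASP shSCR replicate 1 the adjusted p values were 0.0607 for Hmox1 and 0.0995 for Tmprss6. Over all single pellets left out they reached 0.0904 and 0.190. For the same sub-polysomal comparison DESeq2 called 6 of 65 listed genes, adding Hspa9, Ncoa4 and Nubp1, and 652 of the 17757 genes. In polysomal levels against ASP shDHPS, edgeR called 0 of the 69. DESeq2 called 4 of 64 there, Ciapin1, Hmox1, Steap2 and Steap3, and 554 of the 17757 genes. How many genes were given a DESeq2 adjusted p was not counted in either level comparison. The listed counts thus have no matching share beside them and are not read as a result about these lists.

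By list, the iron-sulfur cluster genes, which build the cofactor that turns Aco1 from an RNA binder into an enzyme, had more calls below than above 0. Of 26, edgeR called 14 lower and 6 higher in the polysomal fraction of ASP shSCR, against 18.9% and 20.8% of all genes, and their median log2 ratio was −0.73, against −0.04 for all genes. Coding lengths in this list were not compared, and genes with a short coding region had a lower median ratio, as given above. Without replicate 1 the same list had 14 lower and 7 higher, against 19.7% and 20.7% of all genes, and a median of −0.77. In the other conditions 14 or 15 were lower and 6 or 7 higher. Over all genes, 20.6%, 20.4% and 21.3% were lower and 23.7%, 23% and 21.8% higher in NoASP shSCR, ASP shGRIN2D and ASP shDHPS. The mean pellet ratio in ASP shSCR was lowest for Bola3, at −2.04 (−3.07 without replicate 1), and highest for Ciao1, at 2.05 (2.01 without it).

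Of the 14 heme genes, 6 were higher and 3 lower in ASP shSCR, with and without replicate 1, against 20.8% and 18.9% of all genes. In NoASP shSCR, ASP shGRIN2D and ASP shDHPS 9 were higher in each, against 23.7%, 23% and 21.8% of all genes. In the same order 3, 3 and 4 were lower, against 20.6%, 20.4% and 21.3%. The lowest in ASP shSCR was Slc48a1, at −1.02 (−1.73 without replicate 1), and the highest Urod, a heme synthesis enzyme, at 1.83 (1.87 without it). Of 9 iron uptake genes, 2 were higher and 1 lower in ASP shSCR, and without replicate 1 2 were higher and 0 lower. In NoASP shSCR, ASP shGRIN2D and ASP shDHPS 5, 6 and 5 of them were higher and 1, 0 and 1 lower, to be read against the same shares. Their means in ASP shSCR ran from −0.52 for Mcoln1, a lysosomal channel, to 1.06 for Steap1 (−0.47 and 1.39 without replicate 1).

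Of the 6 genes for control of the iron regulatory proteins, 2 were higher and 0 lower in ASP shSCR, 3 and 0 without replicate 1, 4 and 0 in NoASP shSCR and in ASP shGRIN2D, and 2 and 1 in ASP shDHPS. Over all genes, in the order of these conditions, 20.8%, 23.7%, 23% and 21.8% were higher and 18.9%, 20.6%, 20.4% and 21.3% lower. Their means ran from −0.12 for Fbxl5 to 0.92 for Skp1 (−0.03 and 1.23 without replicate 1). Of the 4 ferritin handling genes, 3 were higher, or 2 without replicate 1, as in each other condition, to be read against the same shares. Pcbp2 was the lowest, at −0.05 (−0.43 without replicate 1), and Ncoa4 the highest, at 1.35 (1.30 without it).

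Of the 4 measured iron export and hepcidin genes, 2 were higher in ASP shSCR with and without replicate 1, 1 in NoASP shSCR, 1 in ASP shGRIN2D and 2 in ASP shDHPS. Tmprss6 was the lowest, at −0.22, but this rested on replicate 1 (−2.56), and without it the mean was 0.56. Bmp6 was the highest, at 0.98 (1.58 without replicate 1), with a mean of only 2.09 counts. The 3 tested genes of the 5' IRE list other than ferritin had 1 call, Slc40a1, and the 3 genes of the 3' IRE list 1 call, Tfrc, in each condition and without replicate 1. Read against shares of 20.8% higher and 18.9% lower over all genes, single calls in lists this short are common.

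Most genes with a 5' UTR match did not have a low ratio. The 72 genes with one and a mean of at least 50 counts had a median log2 ratio of 0.34 in ASP shSCR without replicate 1, 0.42 in NoASP shSCR, 0.37 in ASP shGRIN2D and 0.25 in ASP shDHPS. The medians of all 10375 searched genes were 0.23, 0.23, 0.20 and 0.12. Ftl1 and Fth1 were the lowest 2 of the 72 over the 15 other pellets and Slc40a1 the 5th lowest at −1.99.

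Gene patterns most like Fth1 were ranked by Pearson's r of the log2 ratio over pellets, among 10909 genes. Over 16 pellets the first 5 were B4galt2 (0.990), Ftl1 (0.990), Rbms2 (0.988), Traf4 (0.988) and Rplp0 (0.986), values that ASP shSCR replicate 1 dominates. Without that pellet the first 5 were Ftl1 (0.944), Rbms2 (0.934), B4galt2 (0.926), Csnk1g2 (0.916) and Traf4 (0.910). For Tfrc the first 5 over 16 pellets were Clk1 (0.918), Ptgs2 (0.907), Prkaa1 (0.903), Marchf6 (0.899) and Slc38a2 (0.889), of which Marchf6 (0.918) stayed among the first 5 without it. Pellets of 1 condition share their medium and shRNA, and both genes share each pellet's libraries and scaling, so these values describe likeness and nothing more.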

How the data were processed

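Per the labels and the study's methods, the authors trimmed reads of stranded mRNA libraries (Trim Galore 0.6.6), mapped them to GRCm39 (STAR 2.6.1), quantified them (Salmon 1.4.0), rounded the estimates and dropped rarely detected genes. The deposited values are unnormalized counts of 17757 genes in 32 libraries. Deposited columns of the authors' own fold changes, p-values and gene set scores were not used.

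Counts were tested with edgeR 4.0.16 in R 4.3.3 (TMM, quasi-likelihood F-test, two-sided, Benjamini-Hochberg over all genes, threshold 0.05). The ratio model had 1 term per pellet and 1 polysomal to sub-polysomal log2 ratio per condition over all 32 libraries. Levels were compared among the 16 libraries of a fraction. Log2 ratios per pellet were taken after adding a prior count of 2, and CPM are counts divided by TMM-scaled library size. The edgeR steps were run on simulated counts for the ratio and the sub-polysomal level of ASP shSCR minus ASP shDHPS only. Polysomal levels, DESeq2 and the sequence search were not covered. Transcripts came from GENCODE M21 (GRCm38), since no GRCm39 annotation was used here.

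The members, the lists and the rule for named genes (the 9 members, both knockdown targets, listed genes with a called difference, and the highest and lowest ratio per list) were chosen with earlier results of these data known. Some listed genes are not reported here. Alternatives were other normalizations, a low-count filter, DESeq2 1.42.0, other designs and each pellet left out.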

Additional observations from a re-analysis of the deposited data

Results flagged for a closer look

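Ferritin was selected on these values, so its pellets are described with no test. Polysomal Fth1 of ASP shSCR replicate 1 was 15.95 (log2 CPM), against 9.91 to 10.28 in the other 3 pellets, and polysomal Ftl1 of the same library was 15.44, against 9.68 to 10.06. Sub-polysomal Fth1 of ASP shSCR replicate 2 was 13.84, against 12.26 to 12.45.

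Among the other 7 members, 5 of 84 groups of 4 pellets held a pellet whose distance from its nearest neighbour, as a share of the group's range, passed Dixon's critical value of 0.829, where chance would give about 4.2. Sub-polysomal Aco1 was low in ASP shSCR replicate 4, at 3.79 against 4.55 to 4.63, and in NoASP shSCR replicate 3, at 4.201 against 4.55 to 4.58. Polysomal Ireb2 was low in NoASP shSCR replicate 1, at 6.39 against 6.81 to 6.88. Fbxl5 of ASP shSCR replicate 2 was high in the polysomal fraction, at 6.76 against 5.94 to 5.99, and so was its log2 polysomal to sub-polysomal ratio, at 0.63 against −0.41 to −0.34.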

How the results depend on the processing

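The ferritin ratio and level differences moved without ASP shSCR replicate 1, as given above, and polysomal ferritin differences fell from 4.09, 3.80 and 3.59 (Fth1) to 0.20, −0.07 and −0.28, and from 3.98, 3.66 and 3.51 (Ftl1) to 0.35, 0.05 and −0.11. The counts of genes called between conditions depended on the tool and design, and the cause was not tested.

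For the ratio against ASP shDHPS, 37 genes became 0 with the 2 conditions alone, 0 with DESeq2 size factors, 12 with upper-quartile normalization, 269 with a low-count filter and 664 with DESeq2, which called 1 of the 7 members, Ireb2. For sub-polysomal levels DESeq2 called 1 gene against NoASP shSCR, 231 against ASP shGRIN2D (56 in edgeR) and 652 against ASP shDHPS (251), where it called 2 of the 7 members, Tfrc and Ncoa4. For polysomal levels DESeq2 called 1, 69 and 554 genes. The 3 polysomal calls against ASP shGRIN2D became 0 with the 2 conditions alone and 7 with either DESeq2 size factors or upper-quartile normalization. The 30 against ASP shDHPS became 1, 18 with the filter and 2 with upper-quartile normalization.

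The labels do not say that a replicate number marks a shared batch. Same-numbered pellets had a median correlation of deviations of 0.125, with 13 of 24 pairs over 0.1, against −0.03 for other pairs, and 10 of 16 pellets correlated best with their own number, which is a hint of pairing in the data, but not in every pair, so pairing was not assumed. With a replicate block, calls rose to 231 for the ratio against ASP shDHPS (0 with no replicate block, that is, without pellet terms), 195 and 758 for sub-polysomal levels against ASP shGRIN2D and ASP shDHPS (2 of the 7 members in the latter, Tfrc and Ncoa4), and 27 and 405 for polysomal levels.

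With 1 pellet left out, calls ranged from 0 to 159 for the ratio against ASP shDHPS, 23 to 64 and 80 to 370 for sub-polysomal levels against ASP shGRIN2D and ASP shDHPS, and 0 to 98 and 0 to 304 for polysomal levels. Members called ranged from 0 to 1 against ASP shDHPS in either fraction. Of these, the ratio count fell to 0 without ASP shDHPS replicate 1, 3 or 4, ASP shGRIN2D replicate 2, ASP shSCR replicate 4 or NoASP shSCR replicate 1, 2 or 3.

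Within conditions, members called fell from 5 to 4 in ASP shDHPS with DESeq2 size factors and with no replicate block (Tfrc lost in both, adjusted p = 0.0572 and 0.0841), and in NoASP shSCR with DESeq2 size factors (Aco1, adjusted p = 0.0642). The sub-polysomal Ncoa4 difference to ASP shDHPS had an adjusted p of 0.0477 with the replicate block. Among the 7 tested members, signs turned only for values that were not called. Ireb2 within ASP shDHPS was −0.029 with DESeq2 size factors, −0.028 with DESeq2 and −0.018 with the filter, Ncoa4 against ASP shGRIN2D was 0.048 with the filter, polysomal Ireb2 against ASP shGRIN2D was −0.021 with the 2 conditions alone, −0.019 with the filter and −0.024 with upper-quartile normalization, and polysomal Aco1 0.021 with the replicate block. With 1 pellet left out, within-condition ratios ran from −0.091 to 0.082 (Slc11a2, ASP shGRIN2D) and −0.14 to 0.16 (Ireb2, ASP shDHPS). Ratio differences to NoASP shSCR ran from −0.079 to 0.15 (Slc11a2), −0.41 to 0.055 (Aco1) and −0.062 to 0.35 (Ncoa4), and those to ASP shGRIN2D from −0.49 to 0.023 (Aco1), −0.043 to 0.23 (Ireb2), −0.16 to 0.28 (Fbxl5) and −0.19 to 0.14 (Ncoa4). Sub-polysomal differences ran from −0.14 to 0.10 (Aco1, NoASP shSCR) and −0.23 to 0.043 (Ireb2, ASP shGRIN2D). Polysomal differences to NoASP shSCR ran from −0.34 to 0.093 (Tfrc), −0.031 to 0.42 (Slc11a2), −0.33 to 0.017 (Aco1), −0.079 to 0.31 (Fbxl5) and −0.30 to 0.12 (Ncoa4). Those to ASP shGRIN2D ran from −0.26 to 0.026 (Slc40a1), −0.12 to 0.30 (Tfrc), −0.37 to 0.050 (Slc11a2), −0.20 to 0.24 (Aco1), −0.077 to 0.13 (Ireb2) and −0.26 to 0.23 (Fbxl5), and those to ASP shDHPS from −0.45 to 0.048 (Tfrc) and −0.25 to 0.17 (Ncoa4). Slc40a1 had the lowest counts of the 9 members.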

Other observations

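Replicate 4 gave the highest log2 ratio in all 4 conditions for Aco1 and Ncoa4, and in 3 of 4 for Tfrc. Of the 10909 genes with a mean of at least 50 counts, 3.69% had their highest ratio in replicate 4 of all 4 conditions. In the polysomal library of ASP shSCR replicate 1, the cytosolic rRNA Rn18s-rs5 took 2.70% of counts, inside the range of 0.555% to 5.23% in the other polysomal libraries. Mt-Rnr2, the large mitochondrial rRNA, was at 3408 CPM, against 78.5 to 615 CPM in the other polysomal and 609 to 3275 CPM in the sub-polysomal libraries, and Rn7s1, a signal recognition particle RNA, was at 77.6 CPM, against at most 24.6 and 52.9 CPM. Malat1, a nuclear RNA, was at 12.01 CPM, inside the polysomal range of 4.24 to 43.5 CPM.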
